A study of Pyrus syriaca and Pyrus pyrifolia and Pyrus communis with 12 samples.

Results

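miR168 and miR162 are the microRNAs (miRs) that keep the RNA silencing machinery in check. In the deposited counts they are represented by mdm-miR168a, fve-miR168-3p, mdm-miR162a and fve-miR162-5p, taken by name as all 4 rows of these families among the 355 unique mature miR sequences listed, of which 120 had a read. Small RNA was sequenced from stigma exudates and from stigmas of pear flowers at 12 hours after anthesis, with 1 library of each tissue per genotype and 12 libraries in all. The wild genotypes were the P. syriaca populations of Golan (900 m), Manara (450 m) and SASA (830 m). The cultivated ones were the P. pyrifolia cultivars Hosui and Shinsui and the P. communis cultivar Spadona, grown at 430 m. Flowers opened in a growth room on cut branches. Each exudate was rinsed from the stigmas of many pooled flowers without anthers and cleared by centrifugation, and stigma lobes were cut from several flowers, so that a library stands for a genotype and not for a tree. The p-values below measure the spread between genotypes, because no genotype was sequenced more than once per tissue.

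miR168 and miR162 close feedback loops on the pathway that makes and uses small RNAs. In Arabidopsis, miR168 guides the cleavage of the mRNA of AGO1, the effector protein into which most miRs are loaded, and miR162 targets the mRNA of DCL1, the enzyme that cuts miRs out of their hairpins. A hairpin gives a duplex of a 5p arm and a 3p arm, and as a rule one arm, the guide, is kept in AGO1 while its partner, the star strand, is degraded. The guide is the 5p arm in miR168 (mdm-miR168a) and the 3p arm in miR162 (mdm-miR162a), while fve-miR168-3p and fve-miR162-5p are their partners.

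The mature sequences, given to show how the arms fit together, are those of the deposited table, 5′ to 3′, with the seed (bases 2 to 8) in capitals.
mdm-miR168a: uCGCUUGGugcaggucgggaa
fve-miR168-3p: cCCGCCUUgcaucaacugaau
mdm-miR162a: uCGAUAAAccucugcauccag
fve-miR162-5p: gGAGGCAGcgguucaucgauc
Each was 21 bases long, and no seed was shared with another of the 355 sequences. The nearest other sequence differed at 5 or more of at least 18 bases compared, which is beyond the 7% of mismatches allowed in the alignment. The guide rows stand for more entries than their partners. The sequence of mdm-miR168a was listed under 33 names, 4 of them from apple, peach and strawberry (mdm-miR168a, mdm-miR168b, ppe-miR168 and fve-miR168-5p), and that of mdm-miR162a under 37 names, again with 4 from these species. The sequence of fve-miR168-3p had 11 names and that of fve-miR162-5p had 7, each with 1 from these species. The authors averaged the counts of entries with the same sequence, so a guide count is a mean over 4 entries and a partner count comes from 1. Whether this lowered the guide counts was not tested.

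The hairpins of both partner arms lie on linkage group 5 of strawberry, at LG5:13551511-13551649 (minus strand) for miR168 and LG5:8224745-8224874 (minus strand) for miR162. Those listed for the guides lie on apple contigs, at 8051 to 8193 of MDC036375.12 (plus strand) and 9436 to 9528 of MDC013824.133 (minus strand). The genome builds are not given in the sources used here, and no gene annotation was used. The row names come from different species, but each guide sequence is also listed under a strawberry name (fve-miR168-5p and fve-miR162-3p). The arms faced each other as the strands of a duplex. With 2 unpaired bases left at each 3′ end, miR168 had 14 Watson-Crick pairs, 3 G-U pairs and 2 mismatches over 19 positions, and miR162 had 16 Watson-Crick pairs and 3 mismatches.

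The libraries were shallow, with 27 to 176 reads assigned to miRs in the exudates and 199 to 1777 in the stigmas. Shares are given as percent of these reads, with 95% Wilson intervals that cover counting error only, since reads amplified by PCR and not tagged per molecule cannot be counted as separate molecules. A count of 0 allows a share of up to 3 reads of the total, which was 1.70% (Manara) to 11.1% (SASA) in the exudates and 0.169% (Manara) to 1.51% (Shinsui) in the stigmas. No listed miR defines stigma tissue, so the tissue labels were not checked with a marker. Families miR159 and miR845, listed here for their known part in pollen, had 6 of 422 exudate reads (1.42%) and 217 of 5276 stigma reads (4.11%). All of these were of miR159, as fve-miR845 had none, and whether any came from pollen was not tested. A share cannot tell less of a miR per cell from fewer cells that contain it.

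All 4 rows were read in both tissues, and fve-miR162-5p was the rarest of them in each. Together they had 21 of 422 exudate reads (4.98%, 95% Wilson interval 3.28 to 7.49) and 178 of 5276 stigma reads (3.37%, 2.92 to 3.90). By the rule of the study, under which a miR is present in a tissue with at least 2 reads in some library, mdm-miR168a, fve-miR168-3p and mdm-miR162a were present in both tissues. The highest exudate count of fve-miR162-5p was 1 read, and it was present in the stigma by 2 reads in Manara. Ranked by reads, mdm-miR168a and fve-miR168-3p shared place 6 of the 61 miRs read in exudates, mdm-miR162a was at place 11 and fve-miR162-5p at place 24. In the stigma fve-miR168-3p was at place 9 of 114, mdm-miR168a at 14, mdm-miR162a at 19 and fve-miR162-5p at 78. Ranked by the mean share, which gives each library the same weight, mdm-miR168a was at place 6, fve-miR168-3p at 8, mdm-miR162a at 11 and fve-miR162-5p at 32 in exudates. In stigmas fve-miR168-3p was then at place 8, mdm-miR168a at 15, mdm-miR162a at 17 and fve-miR162-5p at 101.

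In the exudates, mdm-miR168a had 1 read each in Golan, Manara, Hosui and Spadona, 3 in Shinsui and 0 in SASA. In the stigmas it had 12 reads in Golan, 20 in Manara, 10 in SASA, 3 in Spadona and 0 in Hosui and Shinsui. So the guide of miR168 was read in the exudate but not in the stigma of both P. pyrifolia cultivars, although 0 stigma reads still allow a share of 0.890% in Hosui and 1.51% in Shinsui. Its partner fve-miR168-3p had 1 exudate read in Golan, Hosui and Spadona, 2 in Manara and Shinsui and 0 in SASA. Its stigma reads numbered 33 in Golan, 23 in Manara, 28 in SASA, 7 in Hosui, 5 in Shinsui and 7 in Spadona. Of the 4 rows it alone had reads in the stigma of every genotype.

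The guide of miR162 had 2 exudate reads in Manara, 1 in SASA, Hosui and Shinsui, and 0 in Golan and Spadona. The stigma reads of mdm-miR162a numbered 4 in Golan, 14 in Manara, 9 in SASA, 1 in Shinsui and 0 in Hosui and Spadona. The star strand fve-miR162-5p had 1 exudate read in Manara and 1 in Hosui, and 2 stigma reads, both in Manara. Outside Manara, and apart from the single exudate read of Hosui, this arm was not detectable at the depth of these libraries.

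**Figure D1:**
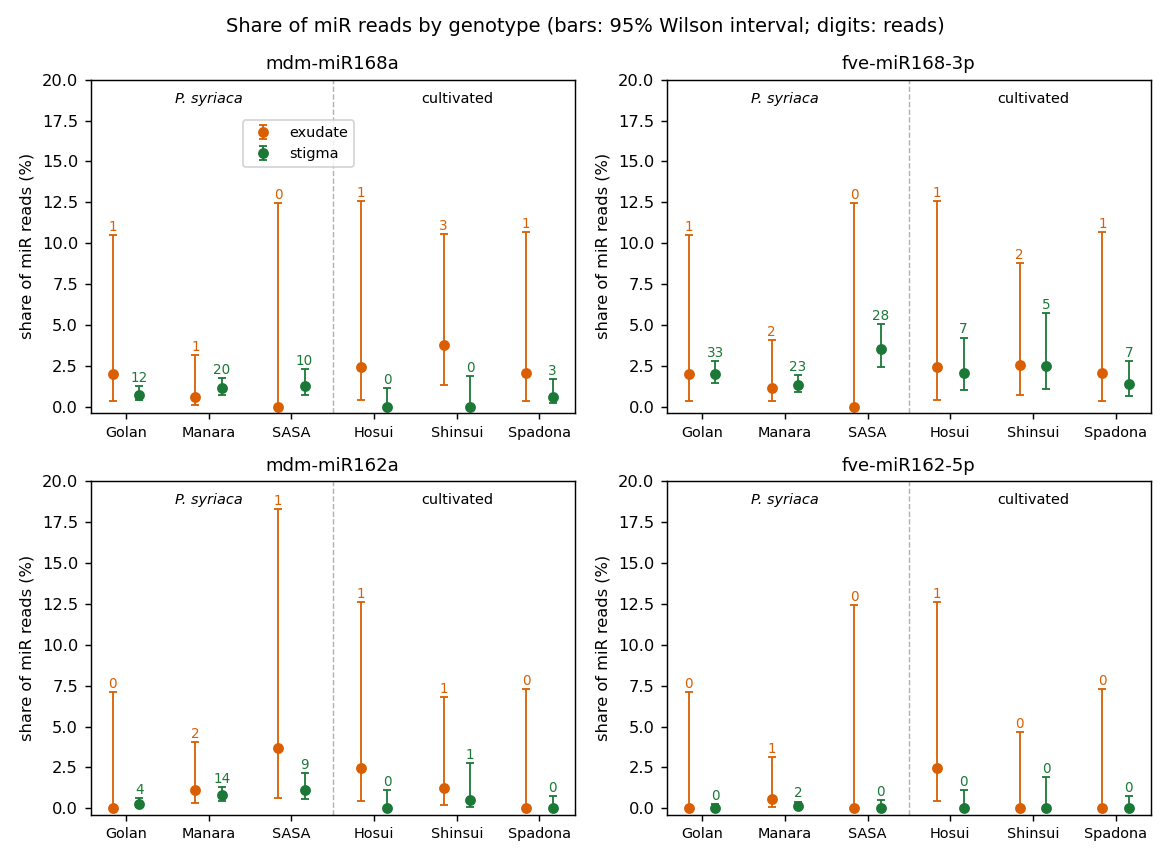
Share of all miR reads (%, linear axis) of each of the 4 rows, by genotype, in the exudate (orange) and the stigma (green). Points are single libraries, bars are 95% Wilson intervals and the digit above each bar is the number of reads. No exudate point rests on more than 3 reads, and the exudate bars reach as far as 18.3% in SASA, while the stigma bars end at or below 5.75%.

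The arms of miR168 were compared within each library, to ask which arm of the hairpin was more abundant. In the stigma the partner outnumbered the guide in each of the 6 genotypes. The stigmas held 45 reads of mdm-miR168a and 103 of fve-miR168-3p, so that the guide made up 30.4% of both arms (95% Wilson interval 23.6 to 38.2). Per library, the guide averaged 0.616% ± 0.538 of miR reads and fve-miR168-3p 2.13% ± 0.824 (SD, n = 6 genotypes). The mean difference was -1.51 percentage points ± 0.926 (SD, n = 6), lower for the guide in 6 of 6 genotypes (two-sided exact test by sign flips, p = 0.0312, which is the lowest value for 6 pairs). It did not pass adjustment over the 5 arm comparisons made (adjusted p = 0.156, same exact test). The gap was smallest in Manara, with 20 reads of the guide against 23 of its partner, and wide in Golan (12 against 33) and SASA (10 against 28). With any 1 genotype left out, 5 pairs remained and the exact p was 0.0625, the lowest value for 5 pairs. With mdm-miR482d and mdm-miR164b taken out of the total, the difference was -4.02 percentage points.

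In the exudate the arms of miR168 were even, with 7 reads each. Golan, Hosui and Spadona had 1 read of each arm, Manara had 1 of mdm-miR168a and 2 of fve-miR168-3p, Shinsui had 3 and 2, and SASA had none. The guide averaged 1.81% ± 1.36 and its partner 1.69% ± 0.964 of exudate miR reads (SD, n = 6). The difference was 0.116 percentage points ± 0.607 (exact sign-flip test, two-sided p = 1.0, adjusted p = 1.0), and its direction came from Shinsui, without which it was -0.114. Of both arms together, the guide took 50% in the exudates (95% Wilson interval 26.8 to 73.2) against 30.4% in the stigmas. Over the 5 genotypes with miR168 reads in both tissues, the guide's part was larger in the exudate in 4 (Golan by 23.3 percentage points, Hosui by 50, Shinsui by 60 and Spadona by 20) and smaller in Manara, by -13.2. The mean difference was 28 percentage points ± 28.7 (SD, n = 5, exact sign-flip test, two-sided p = 0.125, adjusted p = 0.208), where 5 pairs cannot go below 0.0625. Each of these exudate values rests on 2 to 5 reads.

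**Figure D2:**
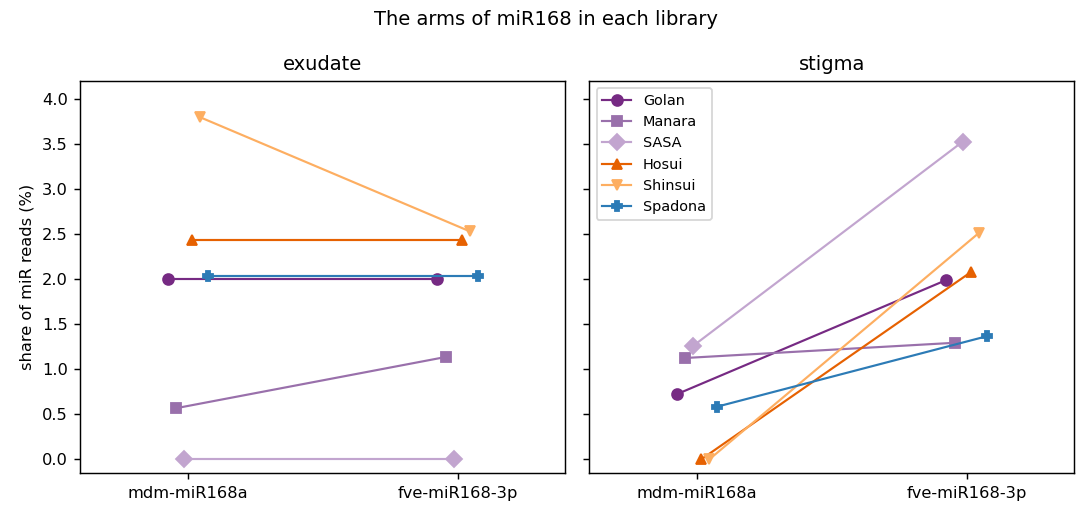
Share of all miR reads (%, linear axis) of the guide mdm-miR168a and of its partner fve-miR168-3p in the exudates (left) and the stigmas (right), with 1 line per genotype. In the stigmas all 6 lines rise toward fve-miR168-3p, and in the exudates 4 lines are level, 1 rises (Manara) and 1 falls (Shinsui).

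The arms of miR162 leaned the other way, toward the guide. In the stigmas mdm-miR162a had 28 reads and fve-miR162-5p had 2, so that the guide made up 93.3% of both arms (95% Wilson interval 78.7 to 98.2), with shares of 0.444% ± 0.454 and 0.0188% ± 0.0459 of miR reads (SD, n = 6). The guide was higher in 4 genotypes and the arms were equal, at 0 reads, in Hosui and Spadona. Their mean difference was 0.425 percentage points ± 0.439 (exact sign-flip test, two-sided p = 0.125, adjusted p = 0.208). In the exudates the reads were 5 and 2, and the guide was higher in 3 genotypes and equal in the rest, with a mean difference of 0.923 percentage points ± 1.45 (exact sign-flip test, two-sided p = 0.25, adjusted p = 0.312). That a star strand outnumbered its guide thus held for miR168 in the stigma, and for miR162 in neither tissue.

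The exudates were then compared with the stigmas, to ask whether these miRs take a larger or smaller part of the miR reads outside the cells. The guides of both families had a higher mean share in the exudate, and neither difference passed the tests. The share of mdm-miR168a was 1.81% ± 1.36 in exudates and 0.616% ± 0.538 in stigmas (SD, n = 6). The exudate exceeded the stigma by 2.44 percentage points in Hosui, 3.80 in Shinsui, 1.45 in Spadona and 1.28 in Golan, and fell short of it in Manara (-0.557) and SASA (-1.26). The share of mdm-miR162a was 1.42% ± 1.44 in exudates and 0.444% ± 0.454 in stigmas, higher in 4 genotypes, lower in Golan and at 0 in both tissues of Spadona. The partner fve-miR168-3p had 1.69% ± 0.964 in exudates and 2.13% ± 0.824 in stigmas, with the exudate above the stigma in 4 genotypes and below it in Manara and SASA. Over the 35 miRs with at least 10 reads, exact sign-flip tests of the shares gave two-sided p = 0.188 for mdm-miR168a (adjusted p = 0.386), 0.125 for mdm-miR162a (adjusted p = 0.365) and 0.875 for fve-miR168-3p (adjusted p = 0.988). No miR of the 35 passed this adjustment, and a higher mean share in the exudate was found in 48.6% of them. With 6 pairs the lowest p of this sign-flip test is 0.0312, which passes over 35 miRs only if most of them reach it. The adjusted result therefore cannot tell whether the shares differ between the tissues. None of the 4 rows moved the same way in every genotype, while 2.86% of the 35 were higher in the exudate in 6 of 6 and 8.57% were lower in 6 of 6. The Wilson intervals of exudate and stigma overlapped in all 24 pairs of genotype and row, as they must where both counts were 0. No exudate count was above 3 reads, so the overlap does not show that the shares were equal.

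On the counts, edgeR's quasi-likelihood test called 1 of 35 miRs between exudates and stigmas (2.86%), and 25.7% of the 35 had an unadjusted p under 0.05. With the genotype as a block it called 2. None of these was a row of miR168 or miR162. The log2 fold change of exudate over stigma was 1.27 for mdm-miR168a (standard error 0.88, adjusted p = 0.295, edgeR), 1.26 for mdm-miR162a (standard error 1.06, adjusted p = 0.388, edgeR) and -0.29 for fve-miR168-3p (standard error 0.73, adjusted p = 0.736, edgeR). The median of all 35 miRs was -0.29, the value of fve-miR168-3p itself, and the guides lay 1.56 and 1.55 above it. With TMM scaling the median moved to -1.43, and the guides of miR168 and miR162 lay 1.58 and 1.68 above it, with fold changes of 0.14 and 0.24. With DESeq2 the median was -0.60, the guides lay only 0.73 and 0.87 above it and fve-miR168-3p lay at -0.84 from it. Without Shinsui, which held 3 of the 7 exudate reads, mdm-miR168a had a log2 fold change of 0.66. The star strand fve-miR162-5p had 4 reads in all and was not tested.

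The reads that an exudate would hold at the stigma share of its genotype show how little the depth allows. For fve-miR168-3p these came to 7.73 reads over the 6 exudates, against 7 observed. For mdm-miR168a they came to 2.97 against 7 observed, of which 4 were in Hosui and Shinsui, where the stigma count was 0. For mdm-miR162a 5 reads were observed against 2.21, and for fve-miR162-5p 2 against 0.198.

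**Figure D3:**
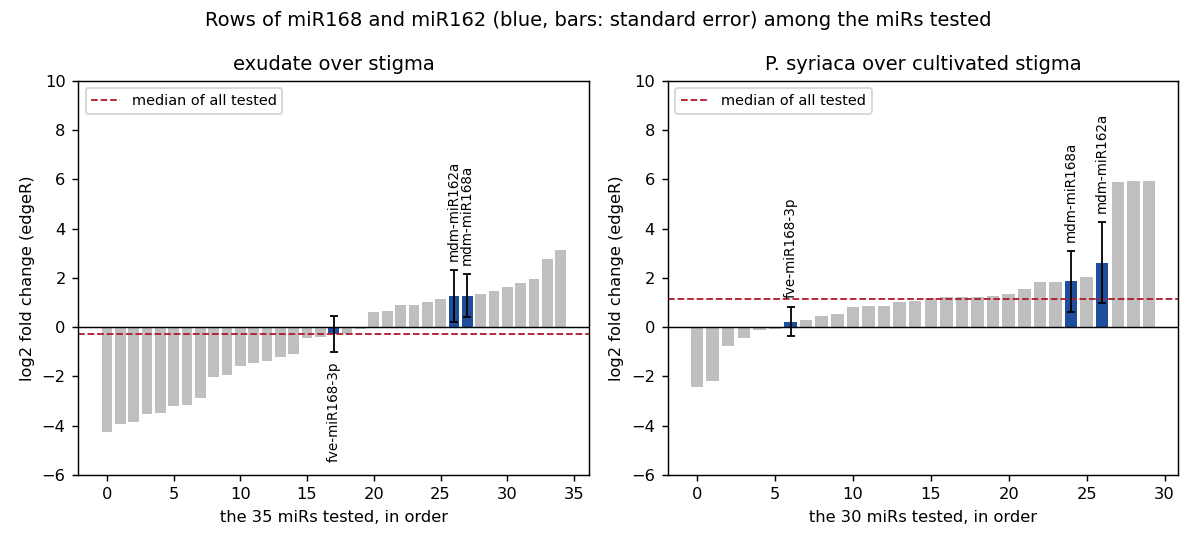
Log2 fold changes from edgeR of all miRs tested, in ascending order, for exudate over stigma (left, 35 miRs) and P. syriaca over cultivated stigma (right, 30 miRs). Rows of miR168 and miR162 are in blue with bars of 1 standard error, and the dashed line is the median of all tested. The guides mdm-miR168a and mdm-miR162a lie above the median in both plots, while fve-miR168-3p lies on it in the left plot and below it in the right plot.

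Wild and cultivated pears were compared within each tissue, as the study set the wild P. syriaca beside commercial species. In the stigma both guides had a higher mean share in the wild pears. The share of mdm-miR168a was 0.724% in Golan, 1.13% in Manara and 1.26% in SASA, against 0% in Hosui and Shinsui and 0.586% in Spadona. These groups did not overlap (1.04% ± 0.279 in P. syriaca and 0.195% ± 0.338 in cultivated pears, SD, n = 3 each, two-sided exact permutation p = 0.1, adjusted p = 0.333, where 0.1 is the lowest value for 3 against 3). P. syriaca lay above the cultivated pears without overlap in 23.3% of the 30 miRs with at least 10 stigma reads, and below them in 6.67%. What 0 reads allow in Hosui (0.890%) and Shinsui (1.51%) reaches into the range of P. syriaca. The share of mdm-miR162a was 0.241% in Golan, 0.788% in Manara and 1.13% in SASA, against 0% in Hosui, 0.503% in Shinsui and 0% in Spadona, and these groups overlapped (same exact permutation test, two-sided p = 0.2, adjusted p = 0.429). Of the 28 stigma reads of mdm-miR162a, 27 were in P. syriaca, whose stigma libraries also held 4228 of the 5276 miR reads.

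The star strand fve-miR168-3p also had a higher mean stigma share in the wild pears, by a smaller margin (0.285 percentage points). Its difference was not tested against those of the guides. This arm made up 1.99% of the stigma miR reads in Golan, 1.29% in Manara and 3.53% in SASA, against 2.08% in Hosui, 2.51% in Shinsui and 1.37% in Spadona, with overlapping groups (2.27% ± 1.14 in P. syriaca and 1.99% ± 0.578 in cultivated pears, SD, n = 3 each, exact permutation test, two-sided p = 0.9, adjusted p = 0.931). The guide's part of both miR168 arms was 33.3% in the summed P. syriaca stigmas (42 of 126 reads, 95% Wilson interval 25.7 to 41.9) and 13.6% in the summed cultivated ones (3 of 22 reads, 4.75 to 33.3), and these intervals overlapped. By library it was 26.7% in Golan, 46.5% in Manara and 26.3% in SASA, against 0% in Hosui and Shinsui and 30% in Spadona, where the groups overlapped too.

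By edgeR 0 of 30 miRs passed an adjusted p of 0.05 between wild and cultivated stigmas (0%), with 8 at an unadjusted p under 0.05 (26.7%) and 2 called by DESeq2, none of them of miR168 or miR162. The log2 fold changes of P. syriaca over cultivated stigma were 1.86 for mdm-miR168a (standard error 1.24, adjusted p = 0.311, edgeR), 2.62 for mdm-miR162a (standard error 1.66, adjusted p = 0.311, edgeR) and 0.22 for fve-miR168-3p (standard error 0.60, adjusted p = 0.812, edgeR), the last turning to -0.12 with TMM scaling. The cultivated side of these values rests on the 3 reads of Spadona for mdm-miR168a and the 1 read of Shinsui for mdm-miR162a, and without that library the cultivated stigmas had none. Most miRs took a larger share in P. syriaca, with 24 of the 30 above 0 and a median of 1.12. Relative to this median, mdm-miR168a lay 0.74 and mdm-miR162a 1.5 above, and fve-miR168-3p at -0.91. In the stigmas mdm-miR482d averaged 50.7% of miR reads in cultivated pears and 9.24% in P. syriaca. For mdm-miR164b, which went the other way, the averages were 16.6% and 38.9%. Shares of other miRs fall where these are large. P. syriaca minus cultivated stigma was 1.44 percentage points for mdm-miR168a without both in the total, against 0.841 with them. For mdm-miR162a it was 0.805 against 0.553, and for fve-miR168-3p -1.83 against 0.285. What part mdm-miR482d and mdm-miR164b had in the guide differences was not tested.

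In the exudate the mean share of mdm-miR168a was lower in the wild pears, the other way from the stigma, and that of fve-miR168-3p was lower too. The share of mdm-miR168a was 2.00% in Golan, 0.568% in Manara and 0% in SASA, against 2.44% in Hosui, 3.80% in Shinsui and 2.04% in Spadona. That of fve-miR168-3p was 2.00%, 1.14% and 0% in the same wild populations, against 2.44%, 2.53% and 2.04% in the same cultivars. Neither pair of groups overlapped (exact permutation test, two-sided p = 0.1 for both, the smallest possible), but Golan and Spadona each had 1 read of each arm, out of 50 and 49 reads, and SASA's 0 of 27 reads allows up to 11.1%. Only 3 miRs had at least 10 exudate reads, none of them a member of these families, and 0% of those 3 stood apart without overlap. All 3 had more reads than these rows, so they give no usual rate of separation for miRs this rare. By edgeR 0 of the 3 passed an adjusted p of 0.05, with 1 at an unadjusted p under 0.05 and 0 called by DESeq2. For mdm-miR162a the shares were 0% in Golan, 1.14% in Manara and 3.70% in SASA, against 2.44% in Hosui, 1.27% in Shinsui and 0% in Spadona, with overlapping groups (same exact permutation test, two-sided p = 1.0).

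The difference between the tissues was also compared between wild and cultivated pears. For mdm-miR168a, exudate minus stigma averaged -0.180 percentage points ± 1.31 in P. syriaca and 2.56 ± 1.18 in the cultivated pears (SD, n = 3 each). The difference of -2.74 had an exact permutation p of 0.1, two-sided, again the lowest value possible. For fve-miR168-3p the averages were -1.23 ± 1.99 and 0.352 ± 0.327 (same exact permutation test, p = 0.1), and for mdm-miR162a 0.892 ± 1.48 and 1.07 ± 1.25 (p = 0.8). The P. syriaca average of fve-miR168-3p rested on SASA (-3.53), whose exudate had 0 of 27 reads, against 0.00845 in Golan and -0.158 in Manara. Other miRs were not compared in this way, so how often they reach this lowest value is not known. Totals of miR reads, which set the value of a single read, differed between the genotypes along with these shares, and their part in the differences was not tested.

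By species, P. pyrifolia (Hosui and Shinsui) had 4 exudate reads of mdm-miR168a and none in the stigma, against 12 stigma reads of fve-miR168-3p. P. communis (Spadona) had no read of either miR162 arm in any tissue. With 49 exudate and 512 stigma reads this allows up to 6.12% and 0.586%. P. syriaca, with 3 libraries per tissue against 1 of P. communis, had reads of all 4 rows in both tissues. Those of fve-miR162-5p were all in Manara, the deepest library of each tissue.

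The predicted targets in Arabidopsis were looked up next. The exudate target table, which the authors obtained from psRNATarget, lists 73 pairings of 19 miRs at 47 loci, and 19 of the 25 miRs present in both tissues have a row in it. Of the 4 rows, fve-miR168-3p and mdm-miR162a have 1 pairing each, and mdm-miR168a and fve-miR162-5p have none. The stigma table, with 163 pairings of 23 miRs, lists none of the 4. The paper ties its stigma targets to stigma-specific miRs, so rows present in both tissues were outside it. The study also set aside miRs like fve-miR162-5p, present in 1 tissue with at most 1 read per library in the other. Its lack of a pairing therefore says nothing about its targets. The guide of miR168 is thus present in both tissues without a predicted locus at the expectation of at most 2.5 used for the tables, while its star strand has one. The sites are shown 5′ to 3′ because they are the whole of what the tables give for these families, with bases in Watson-Crick pairs with the miR in capitals.
AT3G07195, site of fve-miR168-3p: gaUCAGUUGgUGCAgGGgGGG
AT2G23180, site of mdm-miR162a: gaaGAUGCAGAGGUUUAUuGg
The site of fve-miR168-3p is at bases 537 to 557 of the transcript listed at AT3G07195, described in the pollen table as an RPM1-interacting protein 4 (RIN4) family protein. RIN4 itself is an immune regulator of Arabidopsis that bacterial effectors attack. The pairing had 16 Watson-Crick pairs, 3 G-U pairs and 2 mismatches. Counted from the 5′ end of the miR, the mismatches were at bases 4 and 20, so that 1 mismatch and 1 G-U pair (base 7) fell in the seed. The site of mdm-miR162a is at bases 730 to 750 of the transcript listed at AT2G23180, a locus that the tables used here do not describe. It had 16 Watson-Crick pairs, 15 of them in an unbroken run from base 4 to base 18 of the miR, 2 G-U pairs (bases 1 and 3) and 3 mismatches at bases 19 to 21. In both sites the miR bases 10 and 11, between which plant miRs guide cleavage, were in Watson-Crick pairs.

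AT3G07195 is among the 25 loci of the deposited list of predicted targets transcribed in pollen, and AT2G23180 is not. None of the 25 descriptions names an Argonaute or a Dicer. The column of loci carries no name in the target tables, and 7 of 13 sites given for several miRs stand at different loci for different miRs. Neither site above was listed for a second miR, so the match of these sites to their loci could not be checked in this way.

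Of the other families listed here for a part in RNA silencing, miR390 and miR403 had 1 row each. The row of mdm-miR390a, which with AGO7 starts the production of small RNAs against auxin response factors, had 5 exudate reads (3 in Hosui, 1 in Manara and 1 in SASA) and 1 stigma read (Hosui). The row of mdm-miR403a, whose family targets AGO2 in Arabidopsis, had no read in any library. Of the 6 rows in this list, 3 were tested between exudates and stigmas and 3 between wild and cultivated stigmas, and 0 passed in either direction, where edgeR called 2.86% and 0% of all miRs tested. The rows tested were mdm-miR168a, fve-miR168-3p and mdm-miR162a, so the list adds no tested row to those above. Their median log2 fold change was the 1.26 of mdm-miR162a for exudate over stigma, against -0.29 over all 35 miRs, and the 1.86 of mdm-miR168a for P. syriaca over cultivated stigma, against 1.12 over all 30. These medians restate values given above. The whole list took 7.36% ± 5.06 of exudate and 3.26% ± 1.39 of stigma miR reads (SD, n = 6). Of its 26 exudate and 179 stigma reads, 21 and 178 were of the 4 rows of miR168 and miR162. The exudate mean was raised by Hosui, at 17.1% (7 reads), and the exudate median was 5.74%.

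The miRs with the pattern most like these were named by the rank correlation of shares over the 12 libraries, among 22 others with at least 20 reads. This is a description over libraries that share genotypes and differ in depth. Closest to mdm-miR168a was mdm-miR159a, of the family that targets GAMYB-like transcription factors (Spearman's rho 0.75, Pearson's r 0.55), followed by its own partner fve-miR168-3p (0.43 and 0.42) and mdm-miR2118a, of a family that targets resistance genes (0.37 and 0.48). Closest to fve-miR168-3p were mdm-miR159a (0.55 and 0.71), mdm-miR7120a-3p (0.49 and 0.52) and mdm-miR168a. The arms of miR168 were thus not each other's nearest neighbours. Over the 6 stigmas alone their rho was -0.06, and that with mdm-miR159a was 0.81 for mdm-miR168a and 0.20 for fve-miR168-3p. There mdm-miR1511 was closest to mdm-miR168a (rho 0.99) and mdm-miR2118a to fve-miR168-3p (0.89). In the exudates of Golan, Hosui and Spadona, mdm-miR159a and both arms had 1 read each. Their shares there were equal and set by the library totals.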

How the data were processed

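The raw counts per unique mature miR sequence were deposited by the authors, who trimmed reads with Cutadapt 1.1 (18 to 28 bases kept), removed those of low quality with FASTX 0.0.14 and used miRExpress 2.0 to align the rest to Rosaceae hairpins of miRBase 22. A read needed only to overlap a mature miR by more than a set part, so it need not be the exact mature sequence. Counts of identical mature sequences were averaged, and none were normalized. The authors' target tables give positions in transcripts of TAIR version 10. The deposited p-values of GO terms were not used.

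The rows and lists were chosen with earlier results of these data known. The rule named the 4 rows, the 3 miRs of most similar pattern, rows of the silencing list and all their predicted targets. Golan, Manara and SASA are the names of the P. syriaca populations in the study's methods. Shares were tested by exact sign flips over genotypes or exact permutations, and counts by edgeR 4.0.16 (quasi-likelihood, library totals as the scale, at least 10 reads over the libraries fitted, Benjamini-Hochberg over all miRs tested, threshold 0.05) in R 4.3.3. The standard error is the fold change over the root of F. DESeq2 1.42.0 was an alternative, with a local dispersion trend or gene-wise dispersions where the parametric trend could not be fitted. edgeR and the exact tests were tested on simulated data. Python 3.11.15, numpy 2.4.6, pandas 2.3.3, scipy 1.17.1 and matplotlib 3.10.9 were used.

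Both tissues of a genotype come from the same cultivar or population, so they are paired by design. Their deviations from the tissue means, on log2(share + 0.5), correlated above 0.1 in 3 of 6 genotypes, and 2 of 6 exudates were closest to their own stigma.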

Additional observations from a re-analysis of the deposited data

Results flagged for a closer look

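Of 12 sets of 6 values (the 4 rows and both families, in each tissue), 3 held a library that stood apart from the other 5 by the gap to its nearest neighbour, where chance gives about 1 in 20 for continuous values. That rate does not apply to fve-miR162-5p, which was at 0 in 4 exudates and 5 stigmas, so that any library with a read tends to stand apart. The share of fve-miR162-5p was highest in the exudate of Hosui, at 2.44%, which is 1 read of 41. In the stigma this arm stood apart in Manara, at 0.113% (2 reads), with 0 reads in the rest. The share of both miR168 arms was highest in the stigma of SASA, at 4.79%, where fve-miR168-3p had 28 of 794 reads.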

How the results depend on the processing

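The number of miRs that edgeR called between exudates and stigmas, 1 with library totals, was 7 with TMM factors, 6 with DESeq2, 0 with edgeR's own filter (3 miRs tested), 4 without a filter, 2 with the genotype as a replicate block and 6 with the block and TMM factors, and 1 to 3 with a genotype left out (3 without Manara, 2 without Spadona). None of these calls was a row of miR168 or miR162, nor was any in the other comparisons. The block changed no call of these rows. Between wild and cultivated stigmas the number, 0, was 1 with TMM factors, 2 with DESeq2, 1 without a filter and 0 to 3 with a genotype left out (3 without SASA, 2 without Spadona, 1 without Shinsui), and between exudates 0 to 1 (1 without SASA). The direction of fve-miR168-3p was not stable. Its fold change between wild and cultivated stigmas turned to -0.12 with TMM factors, -0.32 with DESeq2, -0.19 without SASA and -0.04 without Spadona, and ranged up to 0.51 with a genotype left out. Its share difference there, 0.285 percentage points, was -1.83 with mdm-miR482d and mdm-miR164b taken out of the total, -0.343 without SASA and -0.0241 without Spadona, and reached 0.773. Between exudates and stigmas it turned to 0.071 (log2) and 0.181 points without SASA. The lowest values with a genotype left out were -0.43 and -0.659, and over all alternatives -1.45 (log2, block with TMM factors) and -1.64 points (without mdm-miR482d and mdm-miR164b). Between wild and cultivated exudates, mdm-miR162a turned to -0.667 points without SASA and -0.239 without Spadona, and fve-miR162-5p to 0.189 without Hosui (ranges with a genotype left out up to 1.19 and down to -1.03). The miR168 arm difference in the stigma kept its direction with each genotype left out (-1.78 to -1.31 points), and that in the exudate ranged from -0.114 (without Shinsui) to 0.253. Taking mdm-miR482d and mdm-miR164b out of the total makes every share above 0 larger. The difference of exudate minus stigma was then 2.70 points for mdm-miR168a and 2.498 for mdm-miR162a, that of wild minus cultivated exudates -4.51 for mdm-miR168a and -2.76 for fve-miR168-3p, and that of the miR168 arms in the stigma -4.02. The cause of the other changes was not tested. Of the alternatives to results that answer a comparison, 130 kept direction and side of the threshold, 15 moved, 8 turned direction and 6 lost the threshold. All 6 were the miR168 arm difference in the stigma with a genotype left out. With 5 pairs the exact sign-flip p cannot go below 0.0625, so they had to lose an unadjusted 0.05. The main result did not pass it after adjustment (exact sign-flip test, adjusted p = 0.156). Most of the 130 were not past the threshold to begin with, or had no test that could pass it, and say nothing about stability. In the exudates, with totals of 27 to 176 reads, no library had more than 3 reads of any of these rows.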
